A study of Rattus norvegicus with 8 samples.

Results

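S100 genes were examined in full-thickness rat skin, in rats given streptozotocin (STZ), which destroys pancreatic beta cells and is used to induce diabetes, and in sham-treated rats. The S100 calcium-binding protein family was represented by 8 genes chosen by name, S100a3, S100a4, S100a6, S100a8, S100a9, S100a10, S100a11 and S100b, after earlier results for the same arrays were known. Of these 8 genes, 7 were matched to a feature (a probe) of the arrays through the RefSeq accession that the feature carries. S100a9 matched none, and its expression was not analysed here. The 7 matched features were among 24684 noncontrol features and 21512 tested ones. Because the list was drawn up with the difference between STZ and sham in view, the members' values are given as a description, with no test.

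Both groups were male Sprague-Dawley rats. The STZ rats received 60 mg/kg into the peritoneum at 4 weeks of age, the sham rats received sodium citrate solution, and skin was taken 4 weeks later, at 8 weeks of age. A cutaneous wound made after that interval is mentioned in the labels, which do not settle whether the profiled skin was wounded. The labels used here give no blood glucose values, and pooling of rats for an array is neither stated nor denied. RNA was labelled with Cy3 and read on 1-colour Agilent arrays. The labels list 4 samples per group. Replicates 1 and 3 and replicates 2 and 4 of each group, however, were scans of the same array. This was checked on the deviation of each spot from the mean of its feature's spots in the same scan. These deviations correlated at 0.977 to 0.991 within these pairs over 7626 spots, against at most 0.654 for other pairs of samples. Each pair of scans was therefore averaged, which left 2 arrays per group, called array 1 (replicates 1 and 3) and array 2 (replicates 2 and 4). The spread given is between arrays. All 4 arrays lay on 1 slide, with the STZ and sham arrays at different positions, so position and group cannot be told apart.

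S100 proteins are small calcium-binding proteins with a pair of EF-hand motifs, and most act as dimers. On binding calcium they expose a surface that contacts other proteins inside the cell, among them annexins and cytoskeletal proteins, and several are also released and signal through cell-surface receptors such as Ager and Tlr4. In skin, S100a8 and S100a9 are known from neutrophils, monocytes and activated keratinocytes, S100a3 from the hair follicle, and S100b from Schwann cells, melanocytes and adipocytes. Most S100 genes, S100b excepted, lie in a cluster on rat chromosome 2, with S100a11 and S100a10 set apart from the rest.

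Levels are log2 of the processed spot intensity over the 75th percentile of the noncontrol features of the same scan, and compare arrays for 1 gene, never genes with each other. On that scale the median tested feature was 0.23 higher in STZ than in sham. Changes are therefore STZ minus sham relative to that median, with the standard error of the limma fit across all features. The p-values of limma, here and below, test the difference on the 75th-percentile scale, before that median is subtracted. Higher genes therefore reach p under 0.05 more easily, and lower genes less easily, than their printed changes would. After Benjamini-Hochberg adjustment of limma's p-values, 0 of the 21512 features passed 0.05 (0%). Without adjustment, 1575 features (7.32%) were higher and 758 (3.52%) lower in STZ at p under 0.05, a split that became 1215 higher and 1148 lower after quantile normalization. The median absolute change over all tested features was 0.57, and the 5th and 95th percentiles of the change were -1.36 and 1.94.

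The members differed between the groups in opposite directions. S100a8 and S100a4 were higher in STZ skin, S100a3 and S100b were lower, and S100a6, S100a10 and S100a11 differed by less than 0.57 on the log2 scale. By sign, 4 of the 7 members were higher and 3 lower, with a median change of 0.24. The arrays of the groups did not overlap for 3 members on the higher side (S100a8, S100a4 and S100a10) and for 2 on the lower side (S100a3 and S100b). Over all tested features, 26.9% had arrays that did not overlap and were higher in STZ, and 17.9% were lower. With the STZ arrays lowered by the median shift, S100a10 overlapped as well, while S100a8, S100a4, S100a3 and S100b stayed separate. The share of all features that stay separate after this shift is not given here. The 26.9% and 17.9% are no background for it. All 7 members were well above background in 8 of 8 samples, and no spot was saturated.

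**Figure D1:**
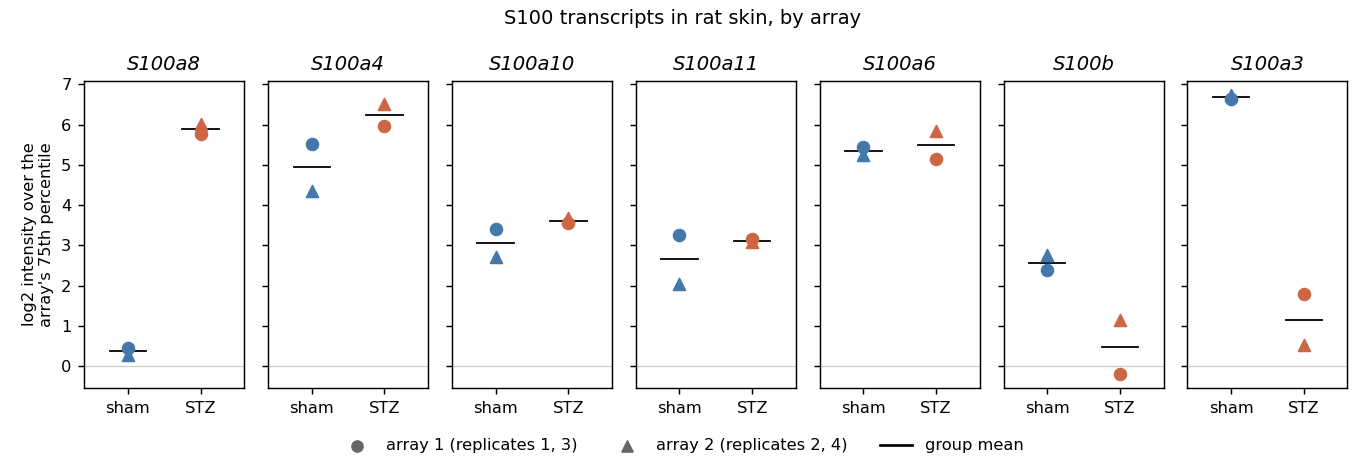
Level of each S100 member on each array, as log2 of intensity over the 75th percentile of that array, for sham and STZ. Circles mark array 1 and triangles array 2 of each group; S100a8 is separated upward by 5.32 and S100a3 downward by 4.86, while the sham and STZ points of S100a6 and S100a11 overlap.

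S100a8 encodes a subunit of calprotectin, the antimicrobial and proinflammatory heterodimer with S100a9. Its processed intensity was 1557, 1584, 1620 and 1606 in sham replicates 1 to 4. In the STZ replicates it was 81790, 39318, 81419 and 39898. Every STZ scan lay above every sham scan, although replicates 2 and 4 of STZ had the lowest overall brightness, with 75th percentiles of 606 and 624 against 1138 to 1496 in the other scans. The level was 0.46 and 0.28 on the sham arrays (0.37 ± 0.13, SD, n = 2) and 5.78 and 6.01 on the STZ arrays (5.89 ± 0.16, SD, n = 2). Relative to the median feature this was 5.30 ± 0.42 (SE) higher in STZ, a 39.4-fold difference. Counting S100a8 itself, 31 of the 21512 features were higher by at least as much.

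S100a3, a protein of the hair cuticle that is modified by the peptidylarginine deiminase Padi3, had the opposite pattern. Its intensity was 114973, 140180, 116107 and 140896 in the sham replicates. In STZ it was 5071 and 5183 in replicates 1 and 3 and 869 and 898 in replicates 2 and 4. The STZ arrays thus also stood apart from each other: the levels were 1.78 and 0.52 (1.15 ± 0.89, SD, n = 2), against 6.64 and 6.74 on the sham arrays (6.69 ± 0.07). The change was -5.76 ± 0.57 (SE), a 54.4-fold lower level in STZ. Counting S100a3, 36 features were lower by at least as much.

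S100b, a homodimer used as a marker of Schwann cells and other glia and also found in adipocytes and melanocytes, was the other member on the lower side. The sham replicates read 5911, 8746, 6105 and 9053 and the STZ replicates 1266, 1357, 1328 and 1388 in processed intensity. The levels were 2.38 and 2.76 on the sham arrays and -0.20 and 1.16 on the STZ arrays. STZ array 1 was thus the lower for S100b, whereas STZ array 2 was the lower for S100a3. The change was -2.31 ± 0.61 (SE), a 4.97-fold lower level in STZ, with group levels of 2.57 ± 0.27 and 0.48 ± 0.96 (SD, n = 2 each).

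S100a4, known from fibroblasts, macrophages and T cells and as a partner of non-muscle myosin, was higher in STZ by a smaller amount. Its levels were 5.52 and 4.35 on the sham arrays and 5.97 and 6.50 on the STZ arrays, which gave 4.94 ± 0.83 and 6.24 ± 0.37 (SD, n = 2 each). The difference between the sham arrays, 1.17, was larger than the gap of 0.45 between the groups. The change was 1.07 ± 0.58 (SE), or 2.11-fold. It was 0.46 without sham array 2 and 1.69 without sham array 1.

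The other 3 members are broadly expressed: S100a6 binds Cacybp and Sugt1, S100a10 is the partner of Anxa2 in a membrane complex that binds plasminogen, and S100a11 binds Anxa1 and takes part in formation of the cornified envelope. S100a10 measured 3.41 and 2.70 on the sham arrays and 3.56 and 3.67 on the STZ arrays, a change of 0.33 ± 0.47 (SE). S100a11 measured 3.25 and 2.05 against 3.15 and 3.09, a change of 0.24 ± 0.56. For S100a4, S100a10 and S100a11 alike, sham array 2 was the lowest of the 4 arrays, and without it the changes of S100a10 and S100a11 were -0.049 and -0.38. S100a6 measured 5.45 and 5.25 in sham and 5.16 and 5.85 in STZ, a change of -0.07 ± 0.47, which is 0.15 on the 75th-percentile scale and so has no settled sign. These 3 changes were smaller than their standard errors.

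The scans of an array differed by at most 0.05 for any member, so the spread above lies between arrays. The difference between the arrays of a group, array 2 minus array 1, reached -1.20 for S100a11 and -1.17 for S100a4 in sham, and 1.36 for S100b and -1.26 for S100a3 in STZ. Over all tested features the median absolute difference was 0.44 between the sham arrays and 0.73 between the STZ arrays.

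Promoters were taken from RefSeq (assembly GRCr8), which had an entry for 6 of the 8 genes. Those of S100a3 and S100a4, which follow each other among the measured genes of the cluster and differed in opposite directions, and of S100b, outside the cluster, are shown as the bases before the annotated start, 5′ to 3′ on the strand of the gene. Capitals mark the TATA-box letters TATAAA, the GC-box letters GGGCGG and the TCF and LEF core letters CTTTG, searched on both strands.
S100a3, chr2:178384263-178384512, plus strand: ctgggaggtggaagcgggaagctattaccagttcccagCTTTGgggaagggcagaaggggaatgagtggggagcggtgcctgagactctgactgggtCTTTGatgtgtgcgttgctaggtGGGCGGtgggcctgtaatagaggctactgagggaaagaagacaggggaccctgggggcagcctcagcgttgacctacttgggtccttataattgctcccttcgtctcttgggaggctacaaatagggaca
S100a4, chr2:178388279-178388528, plus strand: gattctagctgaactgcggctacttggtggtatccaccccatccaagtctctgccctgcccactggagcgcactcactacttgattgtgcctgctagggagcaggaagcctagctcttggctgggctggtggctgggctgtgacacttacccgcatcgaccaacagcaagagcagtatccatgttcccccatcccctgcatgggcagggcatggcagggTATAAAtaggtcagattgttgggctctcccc
S100b, chr20:12381160-12381331, minus strand: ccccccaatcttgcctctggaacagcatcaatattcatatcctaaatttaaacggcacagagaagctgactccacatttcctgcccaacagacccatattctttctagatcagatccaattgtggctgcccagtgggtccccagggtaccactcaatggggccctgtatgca
The S100a3 window lay inside the span annotated for the gene itself, as did that of S100a6, which is not printed. The S100b window held 172 bases. The 78 bases nearest the start were left out because they lay within the span annotated for S100b.

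The S100a3 window held GGGCGG 130 bases before the start and CTTTG 212 and 153 bases before it, and no TATAAA. The S100a4 window held TATAAA 31 bases before the start and neither of the other 2 strings. The 172 bases of the S100b window held none of them, but the 78 bases nearest its start were not searched. Among the members whose windows are not printed, S100a9 held TATAAA 42 bases before the start, S100a6 held GGGCGG at 80, and S100a11 held GGGCGG at 64 and 59, as overlapping copies, and CTTTG at 186 and 173. The AP-1 letters TGANTCA were in 0 of the 6 windows. Over 33469 RefSeq promoters of 250 bases, 12.9% held TATAAA, 30.5% GGGCGG, 48.2% CTTTG and 6.34% TGANTCA. These matches describe letters in a window and say nothing about binding.

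The other S100 genes were followed from a list of 14, of which 6 were tested. At an unadjusted limma p under 0.05, 2 were lower in STZ (S100a7a and S100a1) and 1 was higher (S100a5), beside 3.52% and 7.32% of all features, and none passed after Benjamini-Hochberg adjustment. S100a7a, of the psoriasin group of epidermal antimicrobial proteins, measured 2.26 and 1.13 on the sham arrays and -1.12 and -2.99 on the STZ arrays. Its change was -3.98 ± 0.80 (SE; limma adjusted p = 0.202), or 15.8-fold lower, so this gene and S100a8 differed in opposite directions. S100a1, known from heart and skeletal muscle, measured 0.57 and -0.18 against -2.41 and -2.26. Its change was -2.76 ± 0.48 (limma adjusted p = 0.175), 6.76-fold lower. Over the alternative settings the change of S100a7a lay between -5.07 and -2.84 and that of S100a1 between -3.16 and -2.28. Both genes thus kept their direction. These settings share the same arrays and are not separate support. They include 1 that counts each array as 2 and a crossed replicate block chosen after the data were seen.

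S100a5 measured -3.42 and -4.09 in sham and -2.64 and -0.98 in STZ, so STZ array 2 was the highest of the 4 arrays. Its change was 1.72 ± 0.70 (SE; limma adjusted p = 0.430). It no longer passed the unadjusted threshold without STZ array 2 (change 1.08), without sham array 1 (2.08), without sham array 2 (1.35) or after normexp background correction with quantile normalization (1.23). S100a16, S100vp and S100a7l2 had changes of -1.01 ± 0.53, 0.52 ± 0.61 and -0.70 ± 1.93, with limma adjusted p-values of 0.623, 0.664 and 0.938. S100a7l2 was well above background in 2 of 4 sham samples. None of the 7 fused S100 genes of the epidermis, the family of filaggrin, matched a feature.

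**Figure D2:**
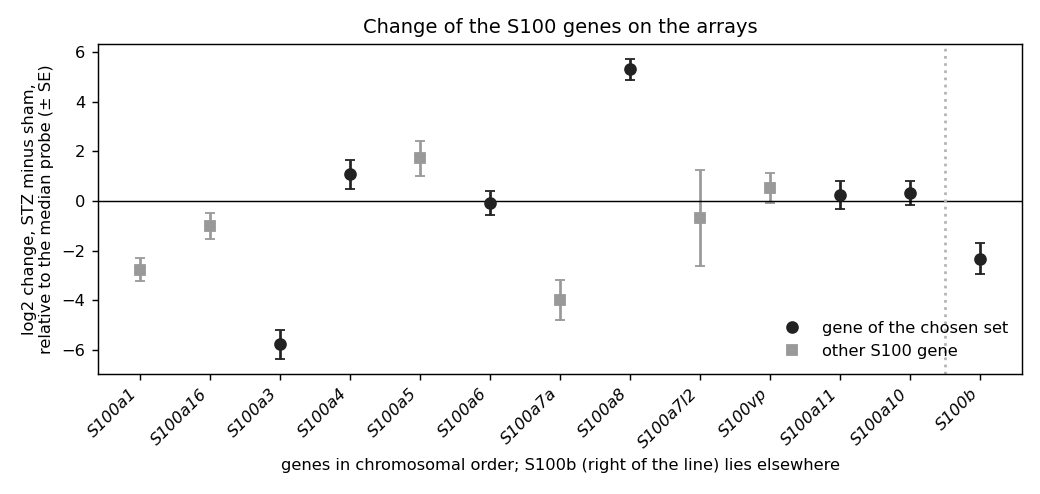
Change (STZ minus sham, log2, relative to the median feature) of each measured S100 gene, drawn in its order on chromosome 2 with S100b apart. Distances between genes are not to scale, and bars are the standard error of the limma fit. S100a3 is at -5.76 and S100a4, the next measured gene, at 1.07, and S100a7a is at -3.98 and S100a8, which follows it, at 5.30.

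Among the measured genes, in their order on the chromosome, runs of lower and of higher genes followed each other. S100a13, S100a14, S100a2 and S100a9 lie among them and had no value. S100a1 (-2.76), S100a16 (-1.01) and S100a3 (-5.76) came first and were lower, S100a4 (1.07) and S100a5 (1.72) followed and were higher, S100a6 was near 0, S100a7a (-3.98) was lower, and S100a8 (5.30) was higher. S100a7l2 (-0.70) and S100vp (0.52) came next, and S100a11 (0.24) and S100a10 (0.33) were last. These last genes do not adjoin S100a8 and S100a9. The promoter window of S100a11 began at base 181874882 and that of S100a9 at 178490623, and S100a10 lay beyond S100a11. The order was read from RefSeq, and no test of position was made.

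Receptors and binding partners of S100 proteins were listed as 30 genes, of which 25 were tested: 15 were higher and 10 lower, with a median change of 0.18 that was 0.43 without sham array 1 and 0.02 without sham array 2. At an unadjusted limma p under 0.05, 4 were higher and 2 lower, beside 7.32% and 3.52% of all features, and the lowest adjusted p was 0.124. The count on the higher side was 1 without sham array 2 and 2 without STZ array 2, and the count on the lower side was 1 without either sham array. Ager, the receptor for S100 proteins and glycated proteins, differed by 0.18 ± 0.48 and Tlr4, the receptor at which S100a8 acts, by 0.70 ± 0.58 (SE; limma adjusted p = 0.759 and 0.615). Ly96, the co-receptor of Tlr4, was higher by 1.37 ± 0.51 (adjusted p = 0.372). Cd69, a lymphocyte activation marker reported to bind S100a8 with S100a9, was higher by 2.42 ± 0.49 (adjusted p = 0.171).

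The partners of S100a10 and S100a6 were followed in the same way. Anxa2 differed by 0.25 ± 0.48, beside 0.33 for S100a10. Plau and Plat, the plasminogen activators, were higher by 1.31 ± 0.46 and 1.29 ± 0.55 (limma adjusted p = 0.333 and 0.431). Trpv6, an epithelial calcium channel brought to the membrane by S100a10 with Anxa2, had a change of -4.44 ± 0.57 (adjusted p = 0.124), with levels of 3.52 and 2.42 in sham and -0.97 and -1.50 in STZ. It was the partner with the lowest p, and its arrays did not overlap. Alcam, a cell adhesion molecule reported as a receptor of an S100 protein, was the other on the lower side, at -1.88 ± 0.56 (adjusted p = 0.403). Cacybp and Sugt1, partners of S100a6, differed by -0.07 ± 0.42 and -0.36 ± 0.53, Anxa1, a partner of S100a11, by 0.28 ± 0.44, and Myh9, a partner of S100a4, by -0.59 ± 0.83. These 5 differences, that of Anxa2 included, were each smaller than their standard error.

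**Figure D3:**
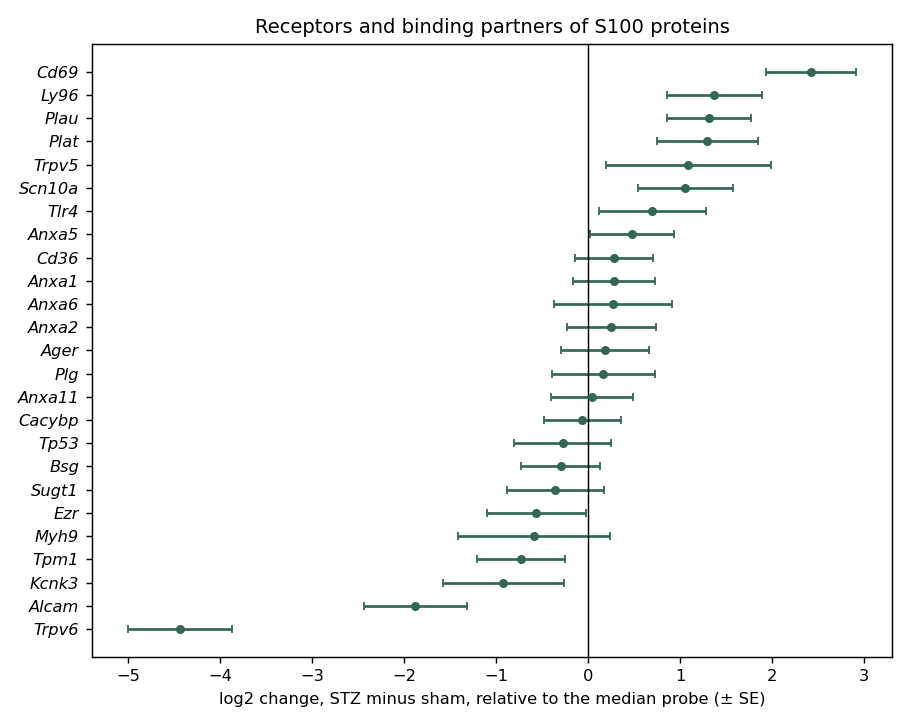
Change (STZ minus sham, log2, relative to the median feature) of receptors and binding partners of S100 proteins, with the standard error of the limma fit as bars. Trpv6 lies lowest at -4.44 and Cd69 highest at 2.42, while Ager and Anxa2 lie at 0.18 and 0.25.

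In skin taken whole, fewer cells of a type and less RNA per cell cannot be told apart, so marker lists of cell types that could hold the members were set beside them. The tissue label was met by the skin keratins: Krt14 lay at 7.15 and 5.54 in sham and at 7.27 and 7.35 in STZ, and Krt1 at 4.67 and 3.52 and at 6.38 and 4.93. The basal and suprabasal keratinocyte list had 2 of 6 tested genes higher and 4 lower (4 higher and 2 lower without STZ array 2), and only Krt77 (-2.92 ± 0.67, lower) had an unadjusted limma p under 0.05, which it lost without sham array 1. No gene of any list passed after adjustment, the lowest adjusted p being 0.0863. The counts at an unadjusted limma p under 0.05 stand beside 7.32% of all features higher and 3.52% lower. Levels summed over a list are given as log2 of the sum of intensities over the 75th percentile. The genes with the highest intensity therefore weigh most in such a sum.

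Beside S100a8, the neutrophil list had 15 of 16 tested genes higher and 1 lower, 12 and 1 of them at an unadjusted limma p under 0.05, with a median change of 2.61. Its summed level was 5.37 and 4.98 in sham and 6.09 and 5.53 in STZ. In sham this sum came mostly from Il1r2 (4.45 and 3.39) and Padi4 (4.05 and 4.30). In STZ, Il1r2 lay at 5.08 and 4.71 and Padi4 at 0.79 and -0.66, so the sum does not stand for the list as a whole. Mmp9, a protease stored by neutrophils and also made by other cells, was higher by 7.67 ± 0.55 (SE), Camp, the cathelicidin peptide, by 3.04 ± 0.42 and Lcn2, lipocalin, by 2.65 ± 0.49. Padi4, an enzyme of neutrophil extracellular traps, was the exception at -4.34 ± 0.62. The granule genes Mpo and Elane matched no feature. Ltf and Ngp, also of this list, differed less, by 0.81 ± 0.83 and 1.57 ± 0.87 (SE; limma adjusted p = 0.662 and 0.548). Ltf was well above background in 2 of 4 sham samples, and its arrays overlapped. The keratinocyte activation list had 7 of 9 genes higher, 5 at p under 0.05, and 2 lower, 1 at p under 0.05, with a median of 2.08. Without sham array 2 the split was 6 higher and 3 lower, with a median of 1.21. In it Defb4, a beta-defensin, was higher by 8.94 ± 0.51, the interleukins Il36a and Il36g by 4.73 ± 0.77 and 4.17 ± 0.69, and Ivl, involucrin, was lower, at -1.89 ± 0.42. Most genes of both lists were thus higher where S100a8 was, and their part in its difference was not tested.

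Macrophage and dendritic cell genes were higher in 15 of 15 cases, 14 at an unadjusted limma p under 0.05 (8 without sham array 2), with a median of 1.87. T and NK cell genes were higher in 16 of 16 (15 after quantile normalization), 13 at p under 0.05 (8 without sham array 2), with a median of 2.31. Examples are Tyrobp, an adaptor of myeloid receptors, at 2.91 ± 0.55 (SE), Cd68, a lysosomal protein of macrophages, at 2.53 ± 0.50, and Cd8a, of cytotoxic T cells, at 4.24 ± 0.42. The fibroblast list had 11 of 12 genes higher and 1 lower, with 2 higher at p under 0.05 (Lum, a collagen-binding proteoglycan, at 2.50 ± 0.66 and Pdgfrb, a growth factor receptor, at 1.20 ± 0.54). That count was 6 without STZ array 1, 1 without STZ array 2, 0 without sham array 2 and 5 after normexp with quantile normalization, and the list's median was 0.72. These are cell types in which S100a4, with its change of 1.07, is known. Their part in the level of S100a4 was not tested.

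Beside S100a3, the hair shaft list had 17 of 19 genes lower, all 17 at an unadjusted limma p under 0.05, and 2 higher, with a median of -6.07, beside the -5.76 of S100a3. The summed level was 8.98 and 9.24 in sham and 6.58 and 5.92 in STZ. STZ array 2 was thus the lower for this sum as it was for S100a3. In STZ most of the sum came from Tgm3, among the higher genes, at 6.12 and 5.84. Krt40 and Krt82, keratins of the hair cuticle, were at -7.37 ± 0.47 and -6.07 ± 0.67 (SE), and each was well above background in 2 of 4 STZ samples. Padi3, the enzyme that modifies S100a3, was at -6.39 ± 1.05, Padi1, of the same family, at -5.51 ± 0.73, and Msx2, a homeobox factor of the hair matrix, at -3.49 ± 0.45. The part of the hair shaft genes in the level of S100a3 was not tested.

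Beside S100b, most genes of the adipocyte list and of the Schwann cell and nerve list were lower. Of 16 adipocyte genes, 15 were lower, 7 at an unadjusted limma p under 0.05, and 1 was higher, with a median of -1.29 and summed levels of 8.22 and 8.32 in sham against 6.49 and 7.19 in STZ. STZ array 1 was the lower for this list, for the Schwann cell and nerve list and for S100b. Cidec, a lipid droplet protein, was at -4.46 ± 0.51 (SE), Gpd1, of glycerol synthesis, at -3.36 ± 0.48, and Aqp7, the glycerol channel, at -3.26 ± 0.61. Of 17 Schwann cell and nerve genes, 13 were lower and 4 higher, with 3 and 2 at p under 0.05 and a median of -0.60 (-0.35 without sham array 1 and -0.91 without STZ array 1); summed levels were 6.45 and 6.09 in sham and 5.86 on STZ array 1, with STZ array 2 between 5.86 and 6.09. The myelin genes Mag and Mbp were at -2.43 ± 0.43 and -1.96 ± 0.45, while the neurofilament gene Nefl was well above background in 0 of 4 sham and 4 of 4 STZ samples. The counts at p under 0.05 were 1 lower and 1 higher without sham array 2, and 5 lower and 1 higher after normexp with quantile normalization. Of 6 melanocyte genes, 4 were lower and 2 higher, none at p under 0.05 (2 lower after quantile normalization and after normexp, and 2 lower with 1 higher without either STZ array), with a median of -1.09 that was -0.59 without STZ array 2. The part of these cell types in the level of S100b was not tested.

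**Figure D4:**
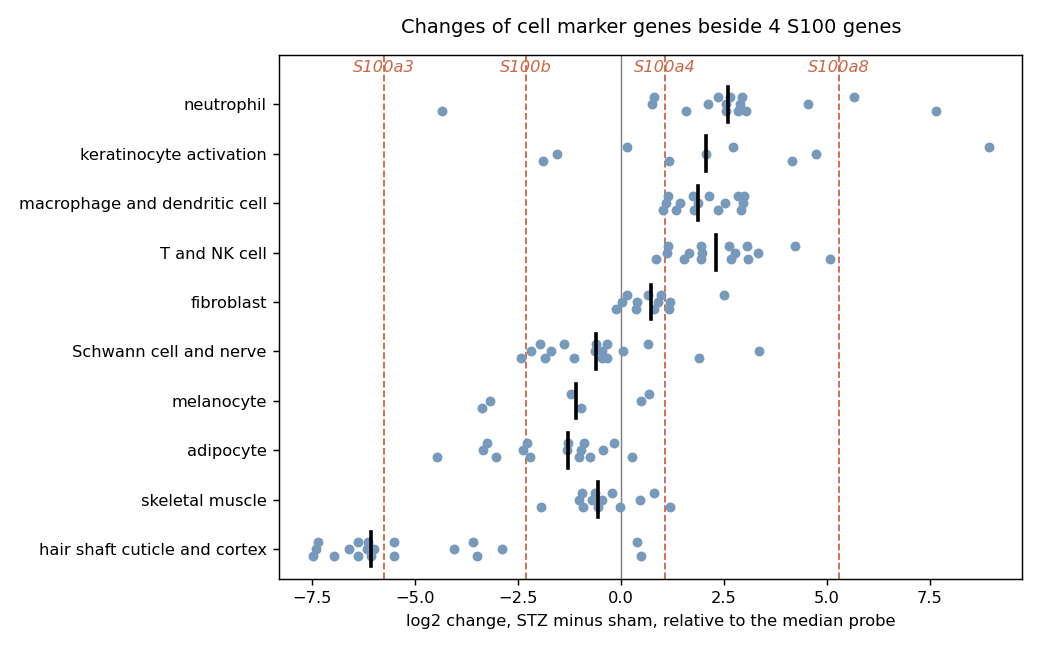
Change (STZ minus sham, log2, relative to the median feature) of each gene of the cell-type marker lists as points, with the median of a list as a black bar and the changes of 4 S100 members as dashed lines. The median of the hair shaft list lies at -6.07 near S100a3, the adipocyte list at -1.29, and the neutrophil, T and NK, keratinocyte activation and macrophage lists between 1.87 and 2.61.

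Transcription regulators known to act at S100a8 and S100a9 were listed as 19 genes, of which 14 were tested: 7 were higher and 7 lower, with a median change of 0.02. At an unadjusted limma p under 0.05, 2 were higher and 2 lower, beside 7.32% and 3.52% of all features. Spi1 and Cebpe, factors of myeloid and granulocyte differentiation, were higher by 2.25 ± 0.53 and 1.94 ± 0.51 (SE; adjusted p = 0.202 and 0.234). Fos, a subunit of AP-1, was lower, at -4.05 ± 0.45, as was Atf3, a stress-induced factor, at -1.61 ± 0.46 (adjusted p = 0.101 and 0.395). The split and the median of the list depended on single arrays: 10 were higher and 4 lower without STZ array 2 (median 0.53) or without sham array 1 (0.20), and 5 were higher and 9 lower without STZ array 1 (-0.33). After quantile normalization 8 were higher and 6 lower, with a median of 0.25. The higher count was 1 without sham array 2 or after quantile normalization and 3 without STZ array 2, and the lower count was 1 without STZ array 1 or either sham array.

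The genes whose 4 array values most resembled a member's were taken from 12598 named genes by the root mean square difference after each gene was centred on its own mean. The 3 nearest to S100a8 were Tmprss11d, an epithelial serine protease, at 0.27, Tnfsf11, the ligand RANKL, at 0.34 and Rnase17 at 0.36. Tnfsf11 was well above background in 0 of 4 sham samples. Nearest to S100a3 were Fbp1, of gluconeogenesis, at 0.15, Padi1 at 0.26 and Kcne1, a potassium channel subunit, at 0.27. Nearest to S100b were Msx1, a homeobox factor, at 0.10, and Bin2a and Arxes1 at 0.15 each.

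For the 4 members with smaller changes, the nearest genes lay closer. They were Pax8 at 0.015, RT1-M3-1 at 0.052 and Bhlhe22 at 0.054 for S100a4, and Cilp at 0.033, Rab2a at 0.045 and Lrrfip2 at 0.047 for S100a10. For S100a11 they were Pbx3 at 0.027, Chp2 at 0.033 and Cpd at 0.044, and for S100a6 Crnkl1 at 0.013, Tbce at 0.027 and Nkiras1 at 0.028. All 4 arrays enter these distances, so that they carry the difference between groups and the deviations of single arrays together.

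**Figure D5:**
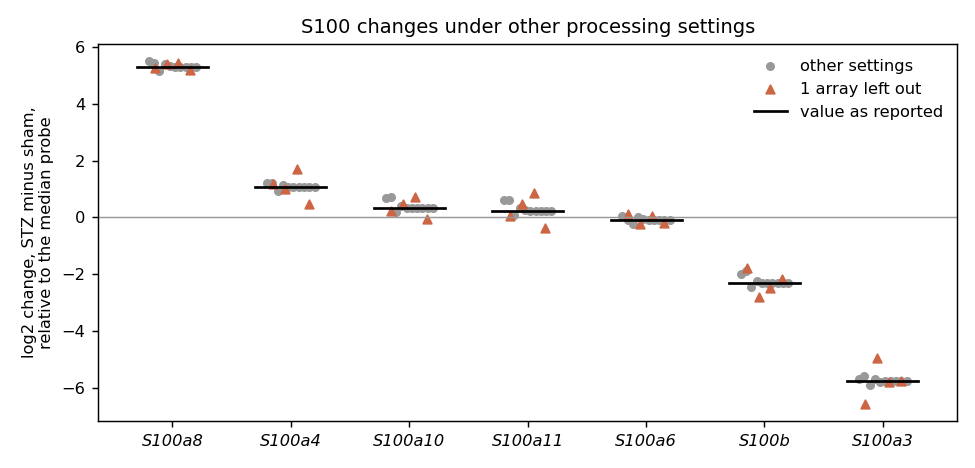
Change of each S100 member (STZ minus sham, log2, relative to the median feature) under the main setting and its alternatives; triangles leave out 1 array. S100a8 stays between 5.16 and 5.50 and S100a3 between -6.55 and -4.94, while S100a10, S100a11 and S100a6 have values on both sides of 0.

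Over 14 alternative settings the changes of S100a8 lay between 5.16 and 5.50, those of S100a3 between -6.55 and -4.94, those of S100b between -2.80 and -1.79 and those of S100a4 between 0.46 and 1.69. S100a10 ranged from -0.049 to 0.71, S100a11 from -0.38 to 0.87 and S100a6 from -0.23 to 0.12. The direction was thus the same throughout for S100a8, S100a3, S100b and S100a4, and for the other 3 it was not. The 14 settings are not separate support. With the 8 scans as separate samples, the replicate block, array weights or the mean of a gene's features, every member kept exactly its main value. The settings with only first or only second scans used the same arrays.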

How the data were processed

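Per the labels' protocols, the arrays were 1-colour Agilent arrays read after Cy3 labelling of amplified total RNA from skin. The deposited files hold spot intensities, background-subtracted and processed by Feature Extraction, version 11.0.1.1 in the headers and 11.0.0.1 in the submitters' processing notes. Control spots were left out, spots that the deposited outlier flags (columns of another kind, 0 or 1) marked were dropped, and spots of a feature were averaged, which left 24684 features from 42136 spots. The deposited intensity was put on the log2 scale, the 75th percentile of each scan was subtracted and the scans of an array were averaged. Features well above background in at least 4 of 8 samples, with a value on all 4 arrays, were tested with lmFit and eBayes of limma 3.58.1 in R 4.3.3, with 2 residual and 3.01 prior degrees of freedom. limma's p-values, on the 75th-percentile scale, were adjusted by Benjamini-Hochberg, and the fit was tested on simulated data. Nothing says that the arrays came from separate animals, so p-values measure only the spread between these arrays, whose number limits the precision.

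Names came from RefSeq (GRCr8) by accession without version; 14274 of 15321 coding accessions matched. The file headers name another build, so no gene coordinates were taken from it. A gene with several features was represented by the brightest. The members and lists were chosen with earlier results of these data known. Named were all members, the tested other S100 genes, up to 4 genes per list with the smallest p, and the 3 nearest profiles per member. Ager, Tlr4, Anxa1, Anxa2, Alcam, Plat, Cacybp, Sugt1, Myh9, Padi3, Il1r2 and Tgm3 were added after their values were seen. So were Ltf, Ngp and the genes listed as unmatched. The normexp alternative used the median spot signal in place of the mean. Replicate numbers did not pair the arrays. Alternatives are in the closing section.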

Additional observations from a re-analysis of the deposited data

How the results depend on the processing

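Leaving out 1 array at a time gave 677 to 5379 features higher and 305 to 1094 lower at an unadjusted p under 0.05, and 0 to 48 past adjustment, the 48 without STZ array 1; an arm of 1 array was taken to vary like the other. It gave 0 to 1 other S100 gene and 1 to 5 partners on the higher side, 1 to 2 partners on the lower side, 2 to 5 of the 7 members higher with the S100a10 change at -0.049 (without sham array 2) and a median member change of -0.20 (without sham array 2) to 0.71 (without sham array 1). Treating the 8 scans as separate samples gave 5314 higher, 3312 lower, 5232 past adjustment and 9 partners higher; that setting counts each array as 2. Quantile normalization gave 1148 lower and a median member change of 0.61, normexp with quantile normalization 1343 lower, 0 other S100 genes higher and a median of 0.61; the cause was not tested. With the replicate block there were 1581 higher, 590 lower and 0 past adjustment. It gave 1 other S100 gene higher and 2 lower, and 3 partners higher and 2 lower. Same-numbered arrays correlated at -0.20 in their deviations from the group mean, so the numbers are only names. A crossed replicate block, chosen after seeing the data, gave 2083 higher, 762 lower and 0 past adjustment. A slide block was not run, since there was 1 slide.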

Other observations

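Among cell types in which no member is a usual marker, 6 of 6 tested erythroid genes were lower in STZ skin. All 6 had an unadjusted limma p under 0.05, and their median change was -3.79. Alas2, of haem synthesis, was at -5.65 ± 0.61 (SE; adjusted p = 0.101). Over all features, 7.32% were higher and 3.52% lower at that unadjusted threshold. Of 9 endothelial genes, 8 were higher and 1 lower, 1 at p under 0.05 (Pdpn, of lymphatic vessels and activated epidermis, at 1.85 ± 0.44), with a median of 0.58 that was 0.18 without STZ array 2; this count was 3 without STZ array 1 and after normexp, 2 after quantile normalization and 0 without sham array 2. Of 13 skeletal muscle genes, 10 were lower and 3 higher, with Mb, myoglobin, higher at p under 0.05 (1.20 ± 0.51) and a median of -0.55 (-0.21 without sham array 2 and -0.89 without sham array 1); the count on the higher side was 0 without any of the 4 arrays in turn. Of 10 mast cell genes, 8 were lower and 2 higher, none at p under 0.05 (1 lower after quantile normalization or normexp, and 1 lower with 1 higher without STZ array 1), with a median of -0.78 that was -0.44 without sham array 1.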
